A study of Homo sapiens with 12 samples.

Results

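The 8 genes BIRC2, BIRC3, XIAP, CFLAR, SOD2, BCL2L1, MCL1 and BCL2 keep cells from dying, and several of them are induced by NF-κB. They were taken by name from the 25141 genes of an RNA-seq count table of HOS cells, a human osteosarcoma cell line. All 8 had a row, and all 8 were among the 12542 genes with enough counts to test. The study asked how the level of the adaptor protein CIN85, the product of SH3KBP1, affects osteosarcoma cells. It compared 4 groups with 3 libraries each, and all of them are HOS cells. The upCIN85 cells are a pool that survived geneticin selection after transfection with pRc/CMV2-Rukl, a CMV promoter plasmid for full-length CIN85. Mock cells are the matching pool with the empty vector, so both carry a vector and were selected. The study describes no repeat of either pool, so other differences between the pools cannot be told apart from an effect of CIN85. For silencing, siCIN85 cells were given several siRNAs to CIN85 together, and siNeg cells a non-targeting siRNA. The time between siRNA transfection and RNA isolation is not given in the sources used here. Nothing in the labels says that the 3 libraries of a group came from separate cultures, so the P-values measure the spread between these libraries, which may be technical.

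Inhibitor of apoptosis proteins (IAPs) hold back cell death at several points. XIAP binds and blocks active caspases, whereas BIRC2 and BIRC3 (cIAP1 and cIAP2) are ubiquitin ligases of the TNF receptor complex. CFLAR encodes FLIP, a caspase-8 homologue without protease activity that competes at death receptors, and SOD2 is the manganese superoxide dismutase of mitochondria. BCL2L1, MCL1 and BCL2 encode proteins that guard the outer mitochondrial membrane, and their messengers respond to different signals. In many cell types BIRC3, CFLAR and SOD2 are targets of NF-κB, and BIRC2 and BIRC3 in turn limit the non-canonical arm of that pathway. BIRC2 protein is also among the proteins known to bind CIN85.

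BIRC3 and BIRC2 are neighbours on the same strand of chromosome 11, with BIRC3 at chr11:102317450-102339403 and BIRC2 at chr11:102347211-102378670 (GRCh38, GENCODE release 29), and 7807 bases lie between them. XIAP is at chrX:123859724-123913979 and CFLAR at chr2:201116104-201176687, both on the plus strand. SOD2 at chr6:159669057-159745186, BCL2L1 at chr20:31664452-31723989, MCL1 at chr1:150574551-150579738 and BCL2 at chr18:63123346-63320128 are on the minus strand. The promoters of the neighbouring pair and of CFLAR are shown because BIRC3 passed the threshold in upCIN85 versus Mock, and BIRC2 and CFLAR passed it there in the fit with a replicate block. Each RefSeq window (GRCh38.p14, plus strand) runs from 250 bases before to 50 bases after an annotated start, at chr11:102317234-102317533 for BIRC3, chr11:102346964-102347263 for BIRC2 and chr2:201118466-201118765 for CFLAR. Capitals mark matches to the NF-κB site consensus, searched on both strands.
BIRC3: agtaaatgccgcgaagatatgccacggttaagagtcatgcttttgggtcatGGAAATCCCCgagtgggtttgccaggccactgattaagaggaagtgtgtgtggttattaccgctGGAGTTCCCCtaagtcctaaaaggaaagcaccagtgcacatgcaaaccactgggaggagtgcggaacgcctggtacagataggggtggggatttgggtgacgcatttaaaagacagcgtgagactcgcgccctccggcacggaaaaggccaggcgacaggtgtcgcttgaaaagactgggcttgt
BIRC2: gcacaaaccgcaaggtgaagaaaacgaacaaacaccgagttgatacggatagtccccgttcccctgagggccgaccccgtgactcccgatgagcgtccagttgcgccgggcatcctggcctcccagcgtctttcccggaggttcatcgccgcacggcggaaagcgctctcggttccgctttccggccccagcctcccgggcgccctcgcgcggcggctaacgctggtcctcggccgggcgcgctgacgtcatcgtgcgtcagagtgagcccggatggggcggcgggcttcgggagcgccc
CFLAR: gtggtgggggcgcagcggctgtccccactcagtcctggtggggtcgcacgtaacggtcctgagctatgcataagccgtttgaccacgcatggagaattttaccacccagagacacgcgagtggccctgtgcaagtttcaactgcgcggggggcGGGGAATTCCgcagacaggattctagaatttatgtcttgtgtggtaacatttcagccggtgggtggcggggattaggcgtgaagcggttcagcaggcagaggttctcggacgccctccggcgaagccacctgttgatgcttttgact

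The BIRC3 window held 2 matches, starting at bases 52 and 116 and both reading along the minus strand. The CFLAR window held 1, at base 154 on the plus strand. BIRC2 had no match in either of its 2 windows, and CFLAR had none in its other 3. SOD2 (4 windows), XIAP (3), BCL2L1 (2) and BCL2 (1) had no match. MCL1 had no window and was not searched. Of all 35116 promoter windows of 300 bases, 3956 (11.3%) held at least 1 match. By gene, 3619 of 27305 (13.3%) had a match in at least 1 window. The letters describe these windows only, and binding was not measured.

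Library totals lay between 3540641 and 6049458 counts. Every siRNA library (at most 4174860) was shallower than every vector library (at least 5334731). SH3KBP1 averaged 84.8 CPM ± 2.36 (SD, n = 3) in siNeg and 7.51 ± 3.18 in siCIN85. CPM is the count scaled to a common library total with TMM factors. In Mock it averaged 77.2 ± 4.99 and in the libraries labelled upCIN85 81.0 ± 9.58 (log2FC 0.070, edgeR adjusted P = 0.887). These libraries read the 3′ ends of messengers, and whether the plasmid carries the native 3′ end is not given in the sources used here, so SH3KBP1 does not check the upCIN85 label. The study reports from western blotting that the selected pool overexpressed full-length CIN85 protein, which these counts do not measure. Of 8 markers of the osteoblast lineage, 6 had a row, and RUNX2, COL1A1, COL1A2, SPARC and VIM were measured in every library, whereas ALPL had at most 23 counts. The summed level of the 6 was 1776 to 2239 CPM in Mock, 1889 to 2558 in upCIN85, 1713 to 2079 in siNeg and 1185 to 1596 in siCIN85. It was thus lower in every siCIN85 than in every siNeg library. Taken singly, COL1A1 (653 to 766 CPM in siNeg, 336 to 480 in siCIN85) and COL1A2 were lower in every siCIN85 library. RUNX2, SPARC and VIM overlapped between these groups, and ALPL, with few counts, was higher in siCIN85. The part of these markers in the results for silencing was not tested. The 9 markers of blood, endothelium and epithelium summed to 54.8 to 60.1 CPM in Mock, 72.9 to 89.6 in upCIN85, 51.2 to 66.2 in siNeg and 46.4 to 62.9 in siCIN85. EPCAM and CDH1 made up most of this, and PTPRC, CD3E, VWF and KRT19 had at most 4 counts in any library. XAF1, an interferon-induced antagonist of XIAP, had 266 counts in siNeg replicate 1 and 81 in siCIN85 replicate 1, against 1 to 19 in each of the other 10 libraries.

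In the libraries labelled upCIN85, BIRC3 fell to 0.380 times its Mock level, and it was the only 1 of the 8 genes past the threshold (adjusted P below 0.05 in edgeR's quasi-likelihood test over all genes), against 0.789% of all genes tested that were called lower. BIRC3 stood at 38.4, 36.4 and 39.5 CPM in Mock replicates 1, 2 and 3 (205, 215 and 226 counts). In upCIN85 it stood at 10.3, 17.4 and 15.6 CPM (59, 107 and 92 counts). Every upCIN85 library lay below every Mock library. The log2FC was −1.40 (SE 0.18, 95% interval −1.78 to −1.02, adjusted P = 0.00115). Leaving out any 1 library gave −1.55 to −1.22, with adjusted P from 0.000966 to 0.00892. In bulk RNA, fewer cells with BIRC3 messenger and less messenger per cell cannot be told apart. The summed level of the markers of other cell types was also higher in every upCIN85 library than in every Mock library, as given above, although the libraries of EPCAM and of CDH1 taken singly overlapped between these groups. The part of these markers in the BIRC3 result was not tested.

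After CIN85 silencing BIRC3 was not past the threshold. It measured 74.5, 98.4 and 93.4 CPM in siNeg replicates 1 to 3 and 59.7, 78.4 and 79.2 CPM in siCIN85. The siCIN85 library was the lower one at each replicate number, but the groups overlapped. The log2FC was −0.29 (SE 0.16, 95% interval −0.64 to 0.047, adjusted P = 0.388). The interval takes in no change as well as a log2FC of −0.64. With the replicate number as a block, a fit that called 7.72% of all genes, the value was −0.29 (adjusted P = 0.142).

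By design CIN85 was raised in one experiment and lowered in the other, and BIRC3 was below its own control on average in both. The upCIN85 log2FC minus the siCIN85 log2FC was −1.10 for BIRC3 (SE 0.24, 95% interval −1.61 to −0.59, adjusted P = 0.0381), and no other of the 8 genes passed this test, against 0.686% of all genes called lower. This call did not hold without any 1 of 10 of the 12 libraries, where adjusted P reached up to 0.0965. It held without upCIN85 replicate 2 (adjusted P = 0.0133) and without siCIN85 replicate 1 (adjusted P = 0.0449). Blocking on replicate in both experiments gave −1.11 (adjusted P = 0.00103), in a fit that called 7.32% of all genes.

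**Figure D1:**
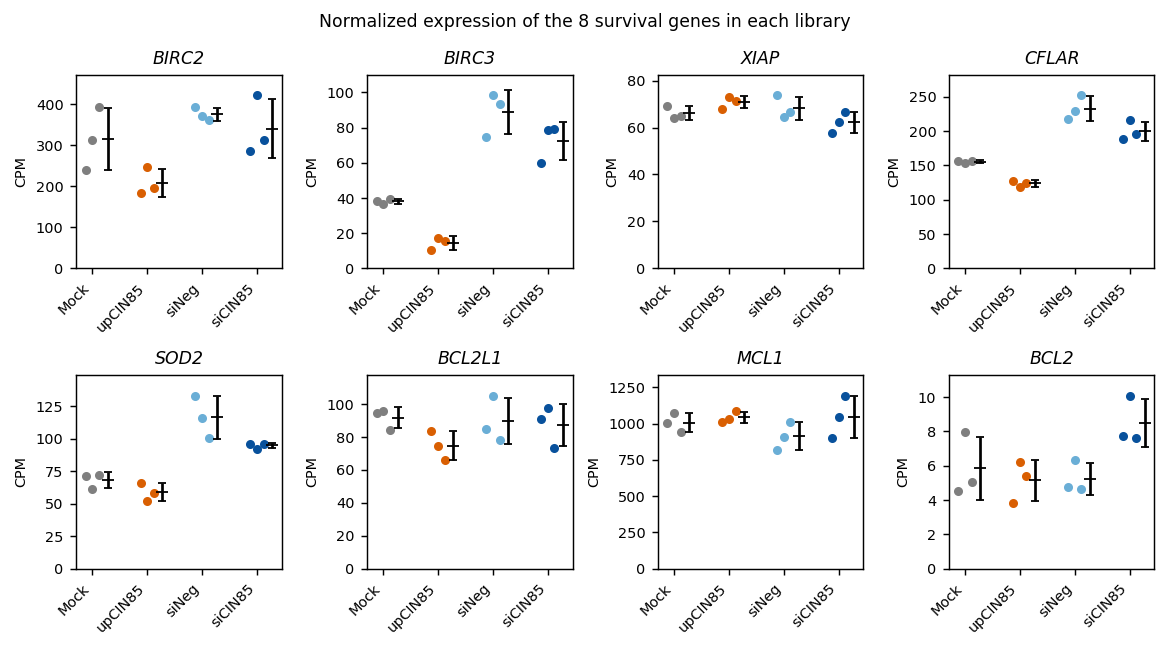
Level of each of the 8 genes in CPM (vertical axis, starting at 0, with its own scale in each panel) in the 12 libraries by group. Points are libraries in replicate order, and the bar beside them is the mean ± SD of 3 libraries. BIRC3 ran from 10.3 to 17.4 CPM in upCIN85, all below the Mock libraries, and from 74.5 to 98.4 CPM in siNeg, all above them.

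BIRC2, the ubiquitin ligase next to BIRC3, was lower on average in the libraries labelled upCIN85 but varied widely between Mock libraries. Its levels were 240.2, 313.7 and 392.3 CPM in Mock and 184, 247 and 195 CPM in upCIN85. The highest upCIN85 library (replicate 2) lay just above the lowest Mock library (replicate 1), so the groups overlapped. The log2FC was −0.60 (SE 0.16, 95% interval −0.94 to −0.25) with adjusted P = 0.0778. Over all genes, libraries of the same replicate number deviated together in both experiments, but the BIRC2 levels did not follow this at every number: replicate 3 was the highest Mock library and lay below the upCIN85 mean. With replicate as a block in both experiments, BIRC2 was past the threshold (−0.58, adjusted P = 0.00339). That fit called 8.25% of all genes and 3 of the 8, among them CFLAR. Without Mock replicate 1 the log2FC was −0.76 (adjusted P = 0.0392), and without upCIN85 replicate 2 it was −0.74 (adjusted P = 0.0431). Without Mock replicate 3 it was −0.41 (adjusted P = 0.339). Of 14 alternative fits, 7 called BIRC2, and the study listed this gene among those lower in upCIN85 than in Mock.

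BIRC2 in siNeg was 393, 372 and 361 CPM, a narrow range, and in siCIN85 it was 287, 422 and 313 CPM. Replicate 2 of siCIN85 lay above and the other two below all siNeg libraries. The log2FC was −0.14 (SE 0.16, 95% interval −0.49 to 0.21, adjusted P = 0.717). Of the 2951 runs of 50 bases at the 3′ ends of BIRC2 transcripts, 11 also occur in BIRC3, so few reads could be shared between the 2 genes.

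XIAP, the direct caspase inhibitor, kept within a narrow range across all 12 libraries. It measured 69.4, 64.0 and 64.9 CPM in Mock and 68.0, 73.0 and 71.2 CPM in upCIN85. In siNeg it measured 73.7, 64.3 and 66.5 CPM and in siCIN85 57.8, 62.3 and 66.6 CPM. The groups overlapped in both comparisons. The log2FC was 0.098 in upCIN85 (95% interval −0.13 to 0.32, adjusted P = 0.732) and −0.13 in siCIN85 (95% interval −0.37 to 0.10, adjusted P = 0.597). At its 3′ ends 5.77% of the 50-base runs also occur in the pseudogene XIAPP1.

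CFLAR varied least of the 8 genes within Mock, relative to its mean, with 156, 153 and 157 CPM. The libraries labelled upCIN85 had 128, 119 and 125 CPM, all below Mock. The log2FC was −0.33 (SE 0.093, 95% interval −0.53 to −0.13), a level 0.796 times that of Mock, with adjusted P = 0.0848. With the replicate block in both experiments it was −0.33 (adjusted P = 0.0204), and over all alternatives adjusted P ran from 0.0204 to 0.249. Together with BIRC3 and BCL2L1, CFLAR was 1 of 3 genes of the 8 whose upCIN85 libraries all lay below Mock, a pattern shown by 11% of all genes.

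CFLAR in siNeg was 217, 229 and 252 CPM, and in siCIN85 188, 216 and 196 CPM. The highest siCIN85 library lay just under the lowest siNeg library. The log2FC was −0.22 (SE 0.093, 95% interval −0.42 to −0.024, adjusted P = 0.26). The difference between the 2 effects was −0.11 (95% interval −0.39 to 0.17, adjusted P = 0.767). Gene counts do not separate the long and short FLIP messengers.

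SOD2, which converts superoxide to hydrogen peroxide in mitochondria, had 71.4, 61.1 and 71.8 CPM in Mock and 66.2, 52.1 and 58.5 CPM in upCIN85. These groups overlapped, with a log2FC of −0.21 (SE 0.13, 95% interval −0.47 to 0.057, adjusted P = 0.477). In siNeg SOD2 was 133, 116 and 100.5 CPM and in siCIN85 96.3, 92.5 and 96.1 CPM. All siCIN85 libraries lay below all siNeg libraries, and they were closer to each other than the siNeg libraries were. The log2FC was −0.30 (SE 0.13, 95% interval −0.56 to −0.032, adjusted P = 0.261). Of the 50-base runs at the 3′ ends of SOD2, 26.4% also occur in other annotation entries, namely FAM177B and a second entry named SOD2 that has no row among the genes used here. WTAP overlaps SOD2 on the opposite strand, so its counts are uncertain.

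Of the BCL2 family, BCL2L1, which encodes BCL-XL, had 94.9, 96.1 and 84.6 CPM in Mock and 83.8, 74.4 and 66.1 CPM in upCIN85. The upCIN85 libraries all lay below Mock, the highest of them by less than 1 CPM. The log2FC was −0.30 (SE 0.14, 95% interval −0.58 to −0.010, adjusted P = 0.324). In siNeg BCL2L1 was 84.9, 105 and 78.4 CPM and in siCIN85 90.7, 97.7 and 73.2 CPM, and the groups overlapped (log2FC −0.039, 95% interval −0.33 to 0.25, adjusted P = 0.923). Gene counts do not tell the BCL-XL messenger from the shorter, death-promoting BCL-XS messenger.

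MCL1, whose protein is short-lived and depends on steady synthesis, had 1004, 1074 and 941 CPM in Mock and 1012, 1033 and 1084 CPM in upCIN85. The groups overlapped, with a log2FC of 0.052 (SE 0.11, 95% interval −0.18 to 0.28, adjusted P = 0.876). In siNeg it was 818, 905 and 1012 CPM and in siCIN85 901, 1047 and 1193 CPM. At each replicate number the siCIN85 library was the higher, and the groups overlapped (log2FC 0.20, 95% interval −0.033 to 0.43, adjusted P = 0.391; with the replicate block, adjusted P = 0.147).

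BCL2, the founding member of the family, rests on few counts. Mock had 24, 47 and 29 counts (4.50, 7.95 and 5.07 CPM) and upCIN85 had 22, 38 and 32 counts (3.83, 6.19 and 5.42 CPM). Replicate 2 was the highest library in both groups, and the groups overlapped (log2FC −0.18, 95% interval −0.76 to 0.39, adjusted P = 0.813). In siNeg it had 19, 26 and 18 counts (4.73, 6.33 and 4.67 CPM) and in siCIN85 32, 35 and 29 counts (7.74, 10.1 and 7.63 CPM). All siCIN85 libraries lay above all siNeg libraries. The log2FC was 0.68 (SE 0.29, 95% interval 0.076 to 1.29, adjusted P = 0.259), a level 1.61 times that of siNeg, and with the replicate block adjusted P was 0.0885.

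After CIN85 silencing, none of the 8 genes passed the threshold, against 1.04% of all genes tested. DESeq2 on the same 12 libraries and the fits with the replicate block also called 0 of the 8. At an unadjusted edgeR P below 0.05 there were 3 (CFLAR and SOD2 lower, BCL2 higher), against 15.7% of all genes. These 3 were also the ones whose libraries did not overlap, a pattern shown by 20.2% of all genes. In upCIN85 against Mock 4 of the 8 had an unadjusted P below 0.05 (BIRC2, BIRC3, CFLAR and BCL2L1, all lower), against 14.5% of all genes. The log2FC was below 0 for 6 of the 8 in each comparison, with a median of −0.25 in upCIN85 (0.0072 over all genes) and −0.14 in siCIN85 (−0.0052 over all genes). With 3 libraries a side, the smallest exact permutation P possible is 0.1.

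**Figure D2:**
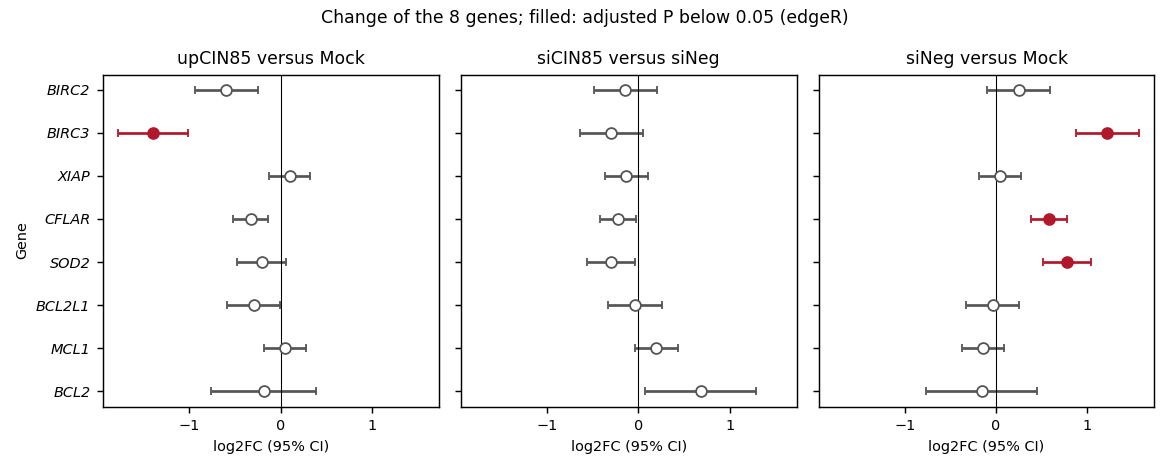
log2FC of the 8 genes with 95% intervals from edgeR in upCIN85 versus Mock, siCIN85 versus siNeg and siNeg versus Mock (horizontal axis, log2 scale), filled where adjusted P is below 0.05. BIRC3 is the only filled gene in upCIN85 versus Mock, with an interval from −1.78 to −1.02, no gene is filled in siCIN85 versus siNeg, and BIRC3, CFLAR and SOD2 are filled in siNeg versus Mock.

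The levels of the 2 control groups were compared as well. BIRC3, CFLAR and SOD2 were higher in every siNeg library than in every Mock library, a pattern shown by 9.48% of all genes. These 3 of the 8 passed the threshold, against 0.415% of all genes called higher. BIRC3 was 2.33 times the Mock level (log2FC 1.22, SE 0.17, 95% interval 0.87 to 1.57, adjusted P = 0.00252). CFLAR was 1.497 times (log2FC 0.58, SE 0.093) and SOD2 1.71 times (log2FC 0.78, SE 0.13) the Mock level, both with adjusted P = 0.00857. BIRC3 stayed past the threshold without any 1 library (adjusted P 0.0017 to 0.0292). CFLAR and SOD2 did not without Mock replicate 2 (adjusted P = 0.0697 and 0.0804), Mock replicate 3 (0.0509 for both) or siNeg replicate 2 (0.0539 and 0.0551). SOD2 also did not when replicate 1 of both siNeg and siCIN85 was omitted (log2FC 0.67, adjusted P = 0.0571). The other 5 genes had a log2FC between −0.16 (BCL2) and 0.25 (BIRC2), with adjusted P of 0.562 or more. Vector with selection, siRNA treatment, experiment and depth all change between these 2 groups and cannot be told apart. This comparison shares its Mock libraries with that of upCIN85.

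Ordered by mean level, BIRC3 ran from upCIN85 (14.4 CPM ± 3.71, SD, n = 3) through Mock (38.1 ± 1.59) and siCIN85 (72.5 ± 11.02) to siNeg (88.8 ± 12.6). CFLAR kept the same order at 124 ± 4.83, 156 ± 1.91, 199.96 ± 14.0 and 233 ± 17.8 CPM. SOD2 did so as well, at 58.9 ± 7.07, 68.1 ± 6.10, 94.96 ± 2.11 and 117 ± 16.4 CPM, and so did BIRC2 at 209 ± 33.5, 315 ± 76.0, 341 ± 71.4 and 375 ± 16.0 CPM. For BIRC3 the libraries of neighbouring groups in this order overlapped only between siCIN85 and siNeg, and for SOD2 only between upCIN85 and Mock. For CFLAR no neighbouring groups overlapped, and for BIRC2 every pair of neighbours did. How many of all genes share this order or these gaps was not counted. The step from Mock to siCIN85 crosses from the vector to the siRNA experiment, which differ in several ways, and was not tested. XIAP, BCL2L1, MCL1 and BCL2 had other orders.

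Over all 12 libraries, the genes whose log2(CPM + 1) followed BIRC3 most closely among 12541 others were CXCL8 (Pearson r = 0.990), CXCL1 (0.981) and IL32 (0.976), all encoding secreted inflammatory proteins. The 12 points fall in 4 groups that differ in BIRC3, and within groups the r of deviations from the group means was 0.768, 0.348 and 0.422. These values are descriptions without a test.

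**Figure D3:**
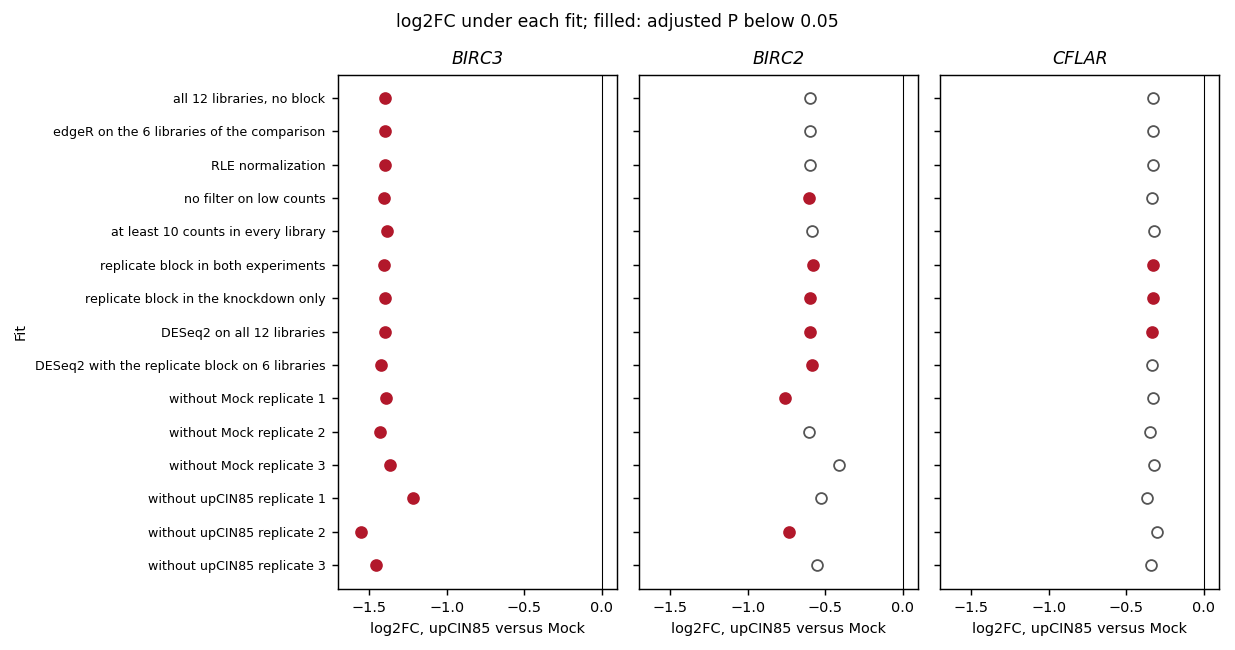
log2FC of BIRC3, BIRC2 and CFLAR in upCIN85 versus Mock (horizontal axis, log2 scale) in the fit on all 12 libraries, under each alternative and with each of the 6 libraries left out (rows). Points are filled where adjusted P is below 0.05. BIRC3 is filled in every row, from −1.55 to −1.22, and BIRC2 and CFLAR in some.

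In the wider NF-κB list (subunits, inhibitors and kinases, 12 of 13 genes tested), all 12 had a log2FC below 0 in upCIN85, as did 6134 of all 12542 genes tested, and the median was −0.36 against 0.0072 over all genes. NFKBIA, NFKBIZ and RELB fell, 3 of the 12, against 0.789% of all genes. NFKBIA, the inhibitor IκBα and itself an NF-κB target, was 198 CPM ± 12.9 in Mock and 101 ± 7.53 in upCIN85 (log2FC −0.97, adjusted P = 0.000824). NFKBIZ, a nuclear co-regulator of NF-κB, was 18.5 ± 0.781 and 8.07 ± 1.20 CPM (log2FC −1.19, adjusted P = 0.00174). RELB, the subunit of the non-canonical arm, was 42.7 ± 4.33 and 24.9 ± 6.55 CPM (log2FC −0.78, adjusted P = 0.0452), and it kept its call only without upCIN85 replicate 2, reaching adjusted P = 0.232 among the other 5 omissions. With the replicate block in both experiments, a fit that called 8.25% of all genes, NFKB1 also fell (−0.41, adjusted P = 0.0137). It did so too with the block for siNeg and siCIN85 alone (edgeR adjusted P = 0.0331). NFKB1 was not past the threshold without the block (edgeR adjusted P = 0.0924) or by DESeq2 (adjusted P = 0.0567). Leaving out 1 library without the block gave edgeR adjusted P from 0.138 to 0.305. The smallest changes were those of REL (−0.069) and IKBKB (−0.050).

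After silencing, 5 of these 12 genes had a log2FC above 0 and 7 below, with a median of −0.051, and none passed the threshold. The lowest values were those of NFKBIA (−0.44, adjusted P = 0.0802) and REL (−0.36, adjusted P = 0.543), and the highest those of NFKBIB (0.42, adjusted P = 0.178) and RELA (0.16, adjusted P = 0.538). With the replicate block NFKBIA fell (−0.45, adjusted P = 0.00201). Between the controls, 11 of the 12 were above 0 in siNeg, and TNFAIP3 (1.504), NFKBIZ (0.93), RELB (0.90) and NFKBIA (0.62) rose, with adjusted P from 0.00857 to 0.0261. These are 4 of the 12, against 0.415% of all genes. Each of these 4 calls was lost without Mock replicate 2 and without Mock replicate 3, and some also without Mock replicate 1 (RELB, NFKBIA), siNeg replicate 1 (RELB, TNFAIP3) or siNeg replicate 2 (RELB, NFKBIA, NFKBIZ), with adjusted P of up to 0.154. The difference between the effects of upCIN85 and siCIN85 passed the threshold for NFKBIZ (−1.12, adjusted P = 0.0249), and did so without any 1 of 5 of the 12 libraries but not of the other 7.

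The other IAP genes and IAP antagonists did not pass the threshold in either comparison. Of 5 tested in upCIN85, 2 had a log2FC above 0 and 3 below (median −0.047), from BIRC6 (−0.23) and HTRA2 (−0.11) to XAF1 (0.093) and DIABLO (0.60, adjusted P = 0.543). DIABLO encodes SMAC, which releases caspases from IAPs. In siCIN85 the split was 2 above and 3 below (median −0.0056), from XAF1 (−1.64, adjusted P = 0.434) and DIABLO (−0.030) to BIRC6 (0.073) and HTRA2 (0.31). With the replicate block XAF1 was past the threshold (−1.63, adjusted P = 0.00167), and its counts rest on replicate 1 of both groups, as given above.

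Among the other BCL2 proteins 12 of 14 were tested, and none passed the threshold in either comparison. In upCIN85, 5 were above 0 and 7 below (median −0.10), with BID (−0.30) and BOK (−0.28) lowest and BAK1 (0.28) and BBC3 (0.52, adjusted P = 0.216) highest. In siCIN85, 8 were above and 4 below (median 0.11), with BAD (−0.54) and BOK (−0.35, adjusted P = 0.186) lowest and BIK (0.62) and HRK (0.82, adjusted P = 0.276) highest. These lists describe direction only.

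Of the list of death receptors, their adaptors and caspases, which also holds APAF1 and CYCS, 15 of 17 were tested. Again none passed the threshold. In upCIN85, 4 were above 0 and 11 below (median −0.12), from APAF1 (−0.32) and TRAF2 (−0.31) to TNFRSF1A (0.12) and RIPK1 (0.20). In siCIN85, 7 were above and 8 below (median −0.014), from TRADD (−0.76, adjusted P = 0.303) and FADD (−0.17) to FAS (0.34) and TNFRSF10A (0.69, adjusted P = 0.189). TNFRSF10A, a receptor for the death ligand TRAIL, was past the threshold with the replicate block in both experiments (0.65, adjusted P = 0.0265). That fit called 7.72% of all genes. TNFRSF10A was not past it with the block for siNeg and siCIN85 alone (edgeR adjusted P = 0.103) or by DESeq2 (adjusted P = 0.154). Its siCIN85 and siNeg libraries overlapped.

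Of the antioxidant enzymes that act beside SOD2, 8 of 9 were tested and none passed the threshold. In upCIN85, 3 were above 0 and 5 below (median −0.082), from PRDX5 (−0.40, adjusted P = 0.216) and TXNRD2 (−0.36) to CAT (0.30) and SOD1 (0.35, adjusted P = 0.0979). With the replicate block in both experiments SOD1 rose (0.35, adjusted P = 0.00814) and PRDX5 fell (−0.40, adjusted P = 0.0488). That fit called 8.25% of all genes. By DESeq2 neither passed the threshold (adjusted P = 0.0594 for SOD1 and 0.225 for PRDX5). Neither passed it in the fits without the block that left out 1 library. In siCIN85, 3 were above and 5 below (median −0.066), from CAT (−0.34) and GPX4 (−0.29) to TXN2 (0.18) and TXNRD2 (0.38).

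**Figure D4:**
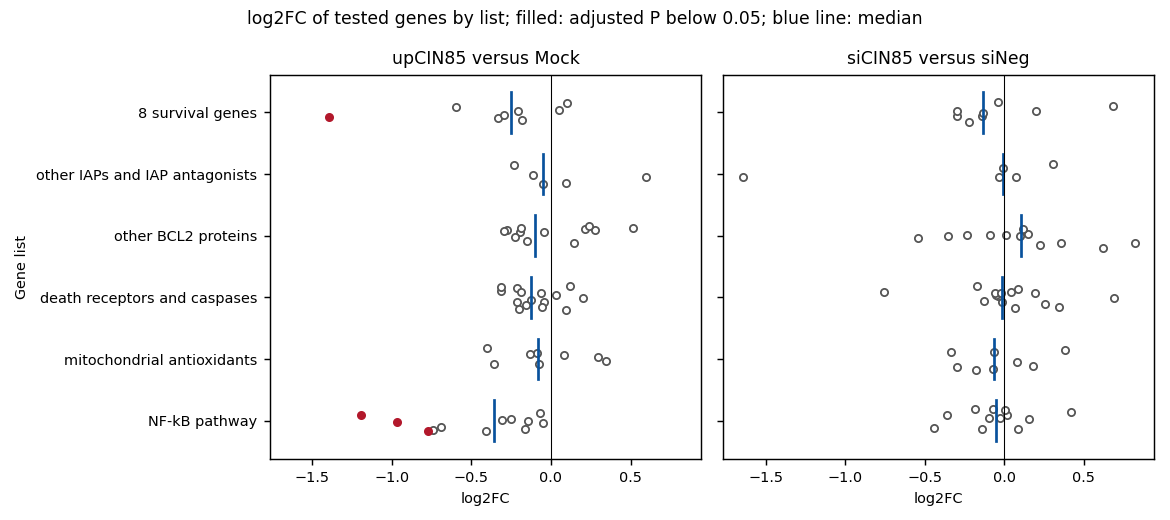
log2FC (horizontal axis, log2 scale) of each tested gene among the 8 survival genes and the 5 pathway lists (rows) in upCIN85 versus Mock and siCIN85 versus siNeg. Each point is 1 gene, filled where adjusted P is below 0.05, and the blue line is the median of the list. All 12 NF-κB genes lie below 0 in upCIN85 versus Mock, and 7 of the 12 do in siCIN85 versus siNeg.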

How the data were processed

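Total RNA of 12 HOS libraries was made into 3′ end libraries with a Lexogen QuantSeq FWD kit and its UMI module, and sequenced as single-end reads. The submitters' processing notes name FastQC, cutadapt 4.3, STAR 2.7.3a, Picard 2.25.6, MultiQC 1.10.1, featureCounts (Subread 2.0) and GRCh38. The authors deposited whole-number counts per Ensembl gene, without normalization. The annotation, the strand setting and whether UMIs were collapsed are not given in the sources used here, so counts may include PCR copies. Groups and replicate numbers follow the labels.

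Names come from GENCODE release 29 (95 of 25141 identifiers had none). In R 4.3.3 with edgeR 4.0.16, filterByExpr (minimum count 10, minimum total 15) kept 12542 genes, TMM factors were applied, and quasi-likelihood tests used a mean per group over all 12 libraries (8 residual degrees of freedom) with Benjamini-Hochberg adjustment over all genes at 0.05. Standard errors were derived from each log2FC and its F statistic. Exact permutation tests were two-sided. Alternatives were RLE scaling, other filters, fits of 6 libraries, DESeq2 1.42.0, leaving out each library, and the replicate number as a block. Deviations from the group means (log2(CPM + 1), 12542 genes) of same-numbered libraries correlated with r = 0.338, 0.245 and 0.109 for Mock and upCIN85 and 0.369, 0.280 and 0.463 for siNeg and siCIN85. The numbers of the labels were therefore taken to pair the libraries in the fits with the block. The main tests did not pair them. No 2 libraries were duplicates (chi-square per degree of freedom between replicates of at least 4.93). The code was tested on simulated data.

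The 8 genes and the pathway lists were chosen with earlier results of these data known. The rule for named genes took the 8 genes, SH3KBP1, every listed gene past the threshold and the 2 highest and 2 lowest of each list. The genes most like BIRC3 follow from it too, and genes named because the block changes their call (NFKB1, TNFRSF10A, XAF1, SOD1 and PRDX5) were in part chosen after their values were seen. NAIP, SOD3, IKBKG, BGLAP and SP7 were not analysed here. Listed genes with too few counts to test were BIRC7, BCL2A1, BCL2L10, TRAF1 and CASP10.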

Additional observations from a re-analysis of the deposited data

Results flagged for a closer look

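BIRC3 passed the threshold in the test of the difference between the 2 experiments. Its log2FC in upCIN85 versus Mock minus that in siCIN85 versus siNeg was −1.10 (SE 0.24, edgeR adjusted P = 0.0381). All 3 upCIN85 libraries lay below all 3 Mock libraries, and the siCIN85 and siNeg libraries overlapped. Adjusted P without each 1 of the 12 libraries ran from 0.0133 to 0.0965. Of 19 alternative fits of this difference, these among them, only 8 kept the call.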

How the results depend on the processing

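Of 480 alternative fits of single genes, 442 kept their direction and side of the threshold, 18 lost and 10 gained a call, and 10 changed sign. In upCIN85 versus Mock, where 1 gene was called, 2 were called without a filter on low counts, 3 with the replicate block in both experiments, 3 with the replicate block for siNeg and siCIN85 alone, 3 by DESeq2 on all 12 libraries and 2 by DESeq2 with the replicate block on 6 libraries, and 1 to 2 when a library was left out. Over all genes these fits called 637, 1035, 545, 311 and 284, against 154. In siNeg versus Mock 3 were called, and 1 to 3 without a library. The difference gave 1, and 0 to 1 without a library. Omitting replicate 1 of both siNeg and siCIN85, chosen after the data were seen because of their XAF1 counts, gave 0 for the difference (BIRC3 adjusted P = 0.0745), and XIAP in siNeg versus Mock turned to −0.016 and SOD2 in the difference to −0.0086. The replicate block changed no call in siCIN85 versus siNeg, where 0 were called in every fit. The other sign changes came from leaving out a library: BCL2 in upCIN85 (−0.34 to 0.10), BCL2L1 in siCIN85 (−0.14 to 0.091), XIAP (−0.017 to 0.083), BCL2L1 (−0.17 to 0.054) and BCL2 (−0.32 to 0.13) in siNeg versus Mock, and SOD2 in the difference (−0.018 to 0.20). The cause of these shifts was not tested. Where a library was left out, its group kept 2. No block could be fitted between siNeg and Mock, nor DESeq2 with the block or a fit of 6 libraries for the difference. BCL2, with 18 to 47 counts per library, is limited by depth.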
